A study of Canis lupus familiaris with 5 samples.

Results

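17-71 and GL-1 are the canine lymphoid lines that carry a B-cell label in this collection, and the expression profile of 17-71 was set against that of GL-1. They are 2 of the 5 lines measured, with 1 Affymetrix canine array each. They were chosen by label alone: 17-71 is described as a B-lymphoid malignancy and GL-1 as a B-cell leukaemia. Of 15115 genes with a probe set on the array, 14143 reached log2 5 in at least 1 of the pair and were compared; the other 972 were too dim in both.

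The remaining lines carry a T-cell label and serve only to place the pair: CL-1 (described as a primitive alpha/beta T-cell leukaemia), CLGL-90 (LGL, labelled LGL T-cell) and CLL-1390 (a primitive T-cell leukaemia). All were untreated, grown in RPMI with 10% FBS, and profiled from total RNA labelled with biotin. No line has a second array, so no value below has a replicate error and no p-value is given. A difference between 17-71 and GL-1 is a difference between these cultures, and how far a second culture of either line would differ was not tested.

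Mature B cells carry a surface antibody receptor whose signalling chains are CD79A and CD79B, display MS4A1 (CD20), and present antigen on MHC class II molecules. CD40, a receptor on antigen-presenting cells, switches on NF-kB, a family of transcription factors held in check in resting cells and known for inducing survival genes such as BIRC3 and BCL2A1. FLT3 is a growth factor receptor of early blood progenitors, and FCGR1A is the high-affinity receptor for IgG on monocytes and macrophages.

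Values are log2 intensities, and a difference is the value in 17-71 minus the value in GL-1, so 1 unit is a doubling and positive means higher in 17-71. Each gene is read on the probe set whose mean over the 5 arrays is highest, and a difference of 2, a 4-fold ratio, is the size counted here. The array medians were 6.96 in 17-71 and 6.95 in GL-1, and 6.87 in the dimmest line. The 59 control probe sets for sequences that dogs lack reached at most 6.60 in 17-71 and 6.66 in GL-1. A value at or under its array's highest such control is called background below, and a difference from it has an uncertain size. The same controls differed between the arrays by -0.31 to 0.58 (SD 0.16). The 27 hybridization spike-in probe sets were all lower in 17-71, by a median of -0.38. Centring the arrays on these spike-ins, an alternative chosen after seeing the data, adds 0.37 to every difference, so list medians that lie less than this below 0 on the deposited scale turn positive there.

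The B-cell label was only partly borne out by defining markers. CD79A read 5.50 in 17-71 and 7.83 in GL-1, and 5.803 at most in the T-labelled lines, so it was above background in GL-1 alone. MS4A1 read 5.72 in 17-71 and 5.83 in GL-1, and CD79B 4.71 in 17-71 and 4.57 in GL-1, all at background. PAX5, the transcription factor that fixes B-cell identity, read 7.18 in 17-71 and 6.99 in GL-1, but it read 6.83 to 7.15 in the T-labelled lines too, so the probe set gave no contrast. The lines are therefore called by name below.

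Some T-cell markers divided the pair. CD3D, a chain of the T-cell receptor complex, read 5.14 in 17-71 and 9.78 in GL-1. CD3G read 5.75 in 17-71 and 10.01 in GL-1. CD2, an adhesion receptor of T and natural killer cells, went the other way at 11.42 in 17-71 and 5.71 in GL-1. CD247 was at background in both (5.68 in 17-71, 5.85 in GL-1), and CD3E read 8.13 in 17-71 and 7.91 in GL-1, beside 7.81 in CL-1. The T-cell markers thus did not move as a set: CD3D and CD3G lay on the GL-1 side and CD2 on the 17-71 side. In RNA from a whole culture, fewer cells of a type and less RNA per cell cannot be told apart.

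Among the markers of natural killer cells, stroma, epithelium and red cells, GZMB differed, at 5.09 in 17-71 and 7.88 in GL-1 (-2.78). KLRG1, an inhibitory receptor of natural killer and T cells, read 7.504 in 17-71 and 12.02 in GL-1 (-4.52). These were the 2 of 15 cytotoxic and natural killer genes that were higher in GL-1 by 2 or more, with 0 higher in 17-71 (13.3% of the list, against 4.08% of all genes either way). NCR1, KLRD1, COL1A1, COL1A2 and EPCAM were at background in both lines. PRF1 (6.87 in 17-71, 6.72 in GL-1), CDH5 (7.46 in 17-71, 7.38 in GL-1) and ALAS2 (7.81 in 17-71, 7.68 in GL-1) were within 0.15 of each other. HBB had no named probe set.

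Over all 14143 genes the profiles were close. The median difference was 0.01 and the median absolute difference 0.23; 72.6% of genes lay within 0.5 and 87.6% within 1. A difference of 2 or more was found in 286 genes higher in 17-71 (2.02%) and 291 higher in GL-1 (2.06%), 577 in all (4.08%). With spike-in centring the counts were 410 higher in 17-71 and 223 higher in GL-1, so the even split holds only on the deposited scale. Differences of 4 or more numbered 72 higher in 17-71 and 58 higher in GL-1. With log2 7 required in at least 1 of the pair, 276 genes were higher in 17-71 by 2 or more and 284 in GL-1. Over 36667 probe sets, named or not, 746 (2.03%) were higher in 17-71 and 748 (2.04%) in GL-1.

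**Figure D1:**
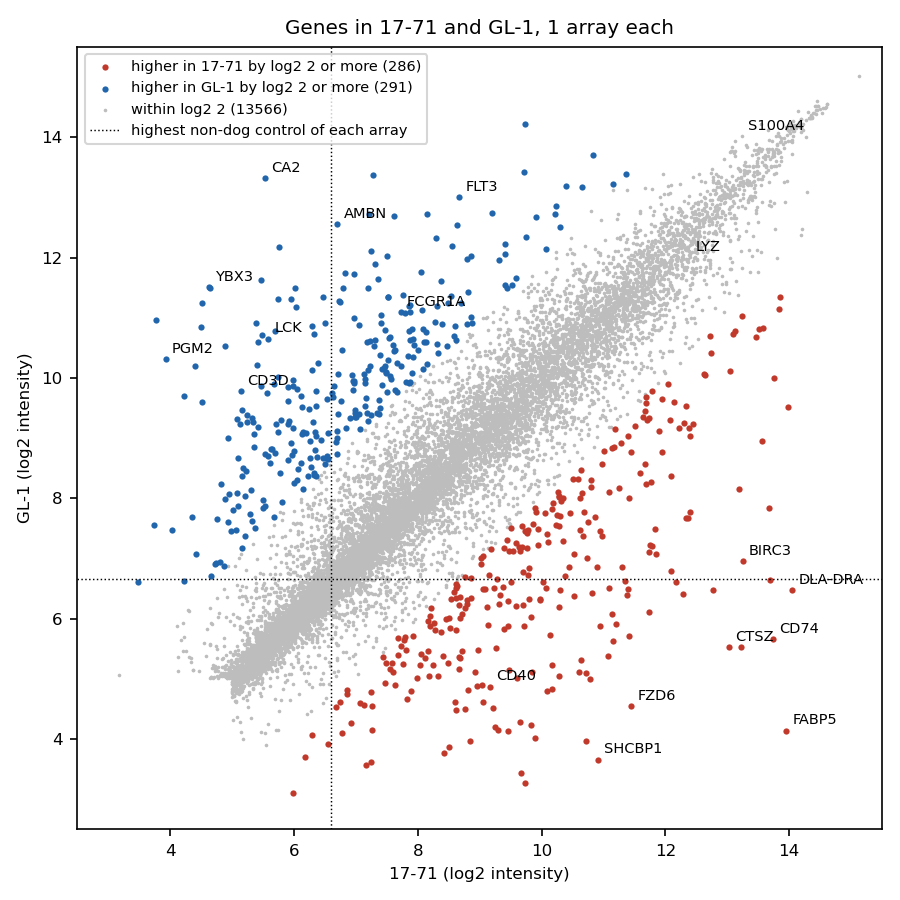
Each point is 1 gene, with its log2 intensity in 17-71 on the x axis and in GL-1 on the y axis; red marks the 286 genes higher in 17-71 by 2 or more, blue the 291 higher in GL-1, grey the 13566 others, and dotted lines each array's highest control for non-dog sequences (6.60 in 17-71, 6.66 in GL-1). FABP5 and CD74 lie far to the lower right, CA2 and FLT3 to the upper left, and LYZ and S100A4 close to equal values at a high level.

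The pair was the second most alike of the 10 pairs of lines. Pearson's r over 36667 probe sets was 0.906 between 17-71 and GL-1 (Spearman's rho 0.902), behind 0.916 between GL-1 and CLL-1390. With log2 7 required in at least 1 of the pair, r between 17-71 and GL-1 was 0.811. By genes apart by 2 or more, 17-71 and GL-1 had 577, GL-1 and CLL-1390 had 462, and 17-71 and CL-1 had 860. These are descriptions across probe sets that share an array and its processing, and GL-1 was by both measures nearer to a T-labelled line than to 17-71.

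In many of the differences the lower line was at background, and for IL6ST both lines were (6.29 in 17-71, 4.06 in GL-1). With each array floored at its highest non-dog control, 231 genes were higher in 17-71 by 2 or more and 250 in GL-1. GL-1 was at background in 157 of the 286 genes higher in 17-71, and 17-71 was at background in 137 of the 291 genes higher in GL-1. The T-labelled lines help to place these genes. Their median lay nearer to GL-1 in 211 of the 286 genes higher in 17-71 (73.8%), and 114 of these 286 (39.9%) stood 2 or more above every T-labelled line in 17-71. Among the 291 genes higher in GL-1 the T-labelled median lay nearer to 17-71 in 161 (55.3%), and 51 (17.5%) stood 2 or more above every T-labelled line in GL-1.

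The other probe sets of a gene are the only repeat measurement of these RNAs, although they share the array and are not replicates of a line. Of the 577 genes, 331 had at least 2 counted probe sets, and in 308 of these (93.1%, 95% Wilson interval 89.8 to 95.3%, which covers counting error only) every probe set had the same sign. Every probe set differed by 1 or more the same way in 240 genes (72.5%) and by 2 or more in 171 (51.7%). The sign agreed in 162 of 169 genes higher in 17-71 and in 146 of 162 genes higher in GL-1. The other 246 genes rest on 1 probe set.

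**Figure D2:**
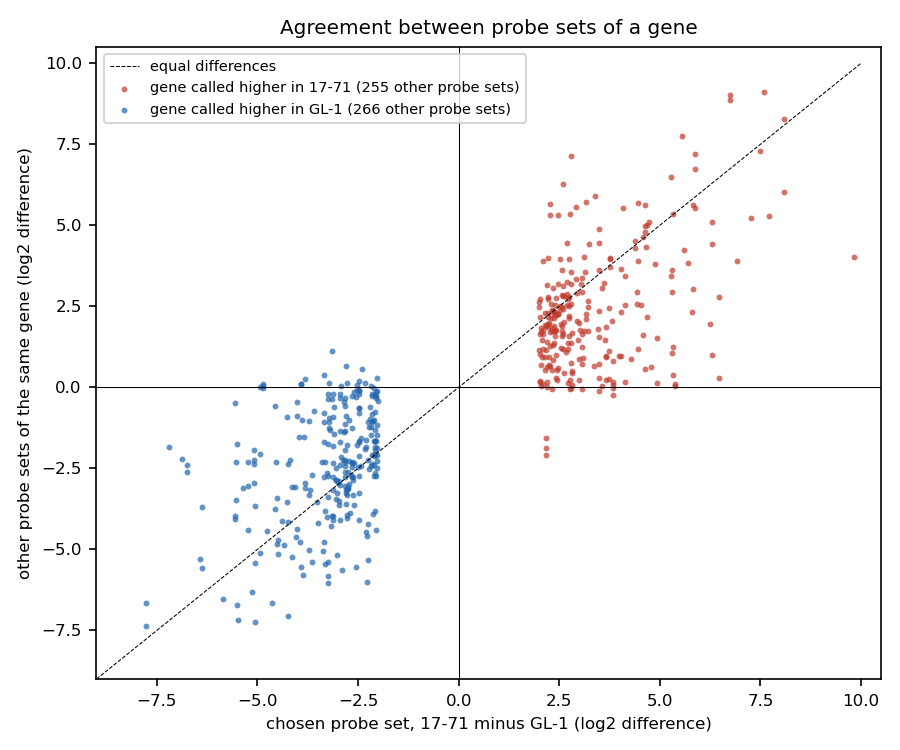
For called genes with several probe sets, the log2 difference (17-71 minus GL-1) of the chosen probe set is on the x axis and that of each other probe set of the gene on the y axis; red points are genes higher in 17-71 and blue points genes higher in GL-1. Most points share the sign of the chosen probe set, while a band of points near 0 on the y axis marks probe sets that did not follow it, and 3 probe sets of AIG1 lie below 0 at an x value of 2.17.

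Of the 38 lists, MHC class II presentation had the highest share of members higher in 17-71. CD74, the invariant chain that escorts MHC class II molecules, read 13.74 in 17-71 and 5.66 in GL-1, a difference of 8.08, with 6.02 and 8.27 on its other probe sets. DLA-DRA, the alpha chain of the DR molecule, read 14.05 in 17-71 and 6.47 in GL-1 (7.58, and 9.10 on the other probe set). DLA-DQA1 read 13.23 in 17-71 and 5.53 in GL-1 (7.70). All 3 were at background in GL-1 and near the top of the scale in 17-71; among the T-labelled lines only CL-1 came close to 17-71, with 12.67 for CD74.

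The beta chains followed. HLA-DRB1, the annotation's name for a DR beta gene, read 13.69 in 17-71 and 6.65 in GL-1 (7.05), and DLA-DQB1 read 12.77 in 17-71 and 6.48 in GL-1 (6.29), each on 1 probe set. CL-1 was again near 17-71, with 12.72 for HLA-DRB1 and 12.43 for DLA-DQB1. Genes of the MHC are close relatives, and cross-hybridization between their probe sets was not tested. CD80, a co-stimulatory ligand for T cells, read 10.08 in 17-71 and 4.803 in GL-1 (5.28), and all 3 of its probe sets differed by 3.43 or more. It read 8.44 in CL-1, 12.76 in CLGL-90 and 4.52 in CLL-1390, so 17-71 was not the highest line.

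The enzymes and editors of peptide loading differed by less, with a signal above background in GL-1. CTSS, the protease that trims the invariant chain, read 13.56 in 17-71 and 8.94 in GL-1 (4.62). Outside the naming rule, DLA-DMB read 11.76 in 17-71 and 8.27 in GL-1 (3.49), and DLA-DMA 10.66 in 17-71 and 8.09 in GL-1 (2.57); together they form the exchange factor that loads peptides. IFI30, a lysosomal thiol reductase, read 12.22 in 17-71 and 9.17 in GL-1 (3.05).

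Of the 20 listed MHC class II genes on the array, 11 were higher in 17-71 by 2 or more and 0 in GL-1. That is 55% of the list, where 4.08% of all genes were called either way; the list median was 2.81 against 0.01 over all genes, and 17 members (85%) were above 0. CIITA, the master activator of these genes, was not among them, at 9.39 in 17-71 and 9.52 in GL-1. Of the factors that bind class II promoters with it, RFX5 read 12.45 in 17-71 and 9.24 in GL-1 (3.21), whereas RFXAP read 8.36 in 17-71 and 9.62 in GL-1 (-1.26). CIITA itself thus gave near-equal signals in the pair.

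MHC class I did not show the same split. B2M, the light chain, read 14.36 in 17-71 and 14.34 in GL-1. Of 19 class I and antigen-processing genes 1 was higher in 17-71 and 0 in GL-1. That is 5.26% called, against 4.08% of all genes, with a list median of 0.14. That gene was DLA-79, a non-classical class I gene, at 13.68 in 17-71 and 7.85 in GL-1 (5.83), with 3.02 and 5.62 on its other probe sets and 7.58 to 8.64 in the T-labelled lines.

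BIRC3, an inhibitor of apoptosis that NF-kB induces, read 13.25 in 17-71 and 6.95 in GL-1, against 4.35 in CL-1, 4.42 in CLGL-90 and 8.68 in CLL-1390. The difference was 6.29, and the other 3 probe sets gave 5.11, 4.42 and 1.003. All 4 pointed to 17-71; the weakest was at background in both lines (5.35 in 17-71, 4.35 in GL-1). CD40 read 9.17 in 17-71 and 4.87 in GL-1 (4.30, 1 probe set), and 4.78 to 5.49 in the T-labelled lines, so 17-71 alone was above background.

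Other NF-kB targets leaned the same way by smaller amounts. ICAM1, an adhesion molecule, read 10.28 in 17-71 and 7.54 in GL-1 (2.73; 1.57 on the other probe set). BCL2A1, a survival factor of the BCL2 family, read 13.85 in 17-71 and 11.34 in GL-1 (2.51; 2.52 on the other). CD83, a surface marker of activated B and dendritic cells, read 7.76 in 17-71 and 5.24 in GL-1 (2.52; 3.96 on the other). CCL5, a chemokine, read 8.53 in 17-71 and 5.84 in GL-1 (2.69). In CLGL-90 CCL5 read 14.29 and BCL2A1 13.36, so neither was particular to 17-71. In the T-labelled lines ICAM1 read at most 6.77 and CD83 at most 6.58.

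Of 39 NF-kB target genes counted, 11 were higher in 17-71 and 1 in GL-1 (30.8% called, against 4.08%). The list median was 0.40 and 33 members (84.6%) were above 0. The exception was TNIP3, an inhibitor of the pathway, at 7.56 in 17-71 and 10.67 in GL-1 (-3.11). Among the 38 genes for NF-kB subunits and regulators 4 were higher in 17-71 and 1 in GL-1 (13.2% called), with a median of 0.46. RELB, a subunit of the non-canonical pathway, read 8.77 in 17-71 and 6.69 in GL-1 (2.08), and CYLD, a deubiquitinase that restrains signalling, read 9.86 in 17-71 and 7.57 in GL-1 (2.29). BIRC3, BCL3, RELB and TNIP3, all called, stand in both lists, as do NFKBIA, NFKB2, TNFAIP3 and TRAF1. The lists are thus not independent of each other. The difference between the lists was not tested. BIRC2, the close relative of BIRC3, read 12.13 in 17-71 and 11.46 in GL-1 (0.67).

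The TNF and TNF receptor families had 6 of 36 genes higher in 17-71 and 1 in GL-1 (19.4% called, against 4.08%; median 0.22). TNFRSF4 (OX40), a co-stimulatory receptor, read 9.45 in 17-71 and 6.28 in GL-1 (3.17). TNFSF10 (TRAIL), a death ligand, read 11.45 in 17-71 and 8.76 in GL-1 (2.69), but 10.53 to 11.64 in the T-labelled lines, so GL-1 was the low one of the 5. TNFSF13B (BAFF), a B-cell survival factor, was higher in GL-1 on its chosen probe set, at 5.21 in 17-71 and 7.36 in GL-1 (-2.15), and its other probe set gave -0.20.

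Lysosomal and sphingolipid enzymes were shifted toward 17-71 as a list, with few large differences. Of 34 genes 4 were higher in 17-71 and 0 in GL-1 (11.8% called, against 4.08% of all genes). The median was 0.63, and 28 members (82.4%) were above 0. CTSZ, a lysosomal carboxypeptidase, read 13.02 in 17-71 and 5.53 in GL-1 (7.49; 7.29 on its other probe set), while CTSB, a lysosomal protease, read 14.21 in 17-71 and 12.48 in GL-1 (1.73). The other CTSB probe set gave 2.25. In the T-labelled lines CTSZ read 9.86 in CL-1, 5.64 in CLGL-90 and 5.24 in CLL-1390. CERS6, a ceramide synthase, read 9.27 in 17-71 and 5.51 in GL-1 (3.76). It read 5.95 in CL-1, 9.86 in CLGL-90 and 8.42 in CLL-1390, so 17-71 was not the highest line. CTSS belongs to this list as well as to MHC class II.

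FABP5, a fatty-acid carrier, had the largest difference of all genes. It read 13.96 in 17-71 and 4.14 in GL-1, against 11.20 in CL-1, 4.38 in CLGL-90 and 12.56 in CLL-1390. The difference was 9.82, and 4.03 on a dimmer second probe set. High and background values thus each occurred under both labels.

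**Figure D3:**
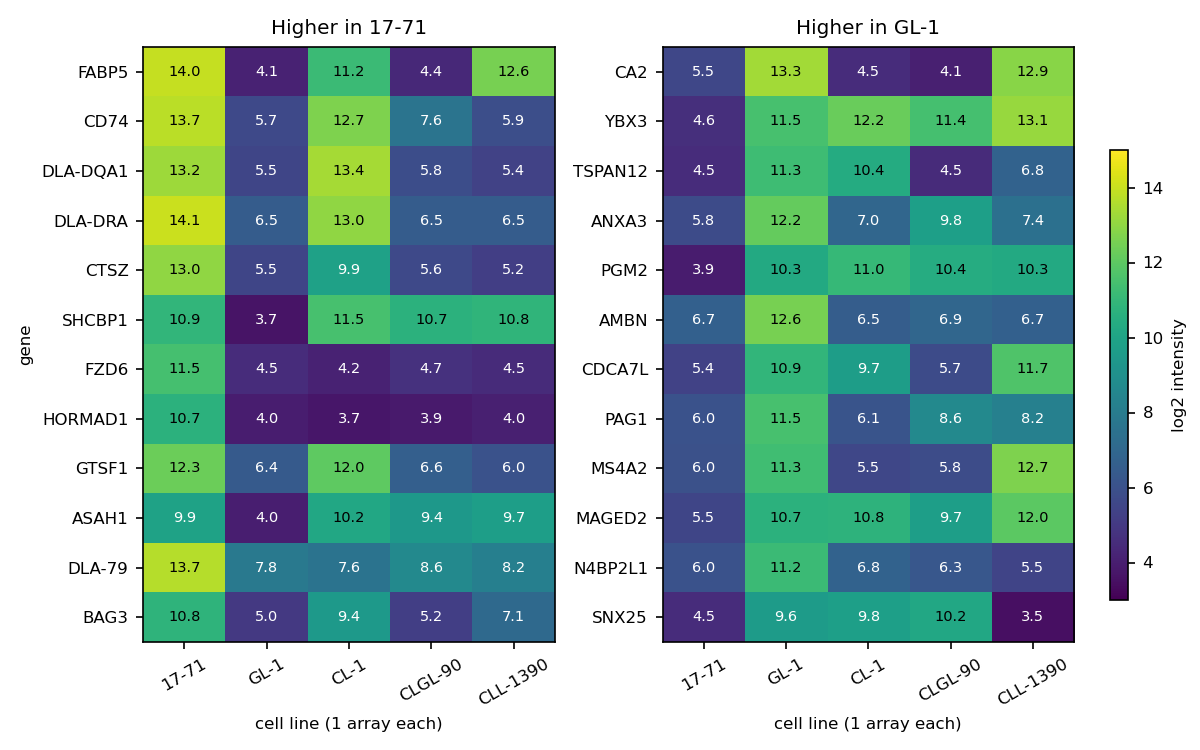
Log2 intensity (colour and printed value) in each line, 1 array per line, of the 12 genes per direction with the largest difference whose counted probe sets all differ by 2 or more the same way; the left panel holds genes higher in 17-71 and the right panel genes higher in GL-1. FZD6 and HORMAD1 are bright in 17-71 alone and AMBN in GL-1 alone, whereas SHCBP1 and ASAH1 are dark only in GL-1 and YBX3 and PGM2 only in 17-71.

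Several genes with agreeing probe sets stood far above every other line in 17-71. FZD6, a Wnt receptor, read 11.45 in 17-71 and 4.55 in GL-1 (6.91), and HORMAD1, a protein of meiotic chromosomes, read 10.71 in 17-71 and 3.97 in GL-1 (6.75; 8.88 and 9.02 on its other probe sets). SYCP2, a component of the synaptonemal complex of meiosis, read 8.85 in 17-71 and 3.96 in GL-1 (4.89; 3.80 on the other). ETV1, an ETS-family transcription factor, read 12.17 in 17-71 and 6.61 in GL-1 (5.56; 7.75 on the other), where the T-labelled lines had 6.70 to 6.98.

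Surface receptors also stood far above every other line in 17-71. CCR6, a chemokine receptor of B cells and memory T cells, read 11.13 in 17-71 and 6.07 in GL-1 (5.06, 1 probe set), and 6.04 to 6.32 in the T-labelled lines. IL1R2, a decoy receptor for interleukin-1, read 11.73 in 17-71 and 7.11 in GL-1 (4.62; 4.99 on the other probe set). CD38, an ectoenzyme of plasma cells and activated lymphocytes, read 9.06 in 17-71 and 4.61 in GL-1 (4.45; 3.89 on the other). BANK1, an intracellular scaffold of B-cell receptor signalling, read 8.95 in 17-71 and 4.87 in GL-1 (4.08, 1 probe set), with 4.92 to 5.64 in the T-labelled lines.

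TASL and LAMP3 had 1 probe set each. TASL, an adaptor of endosomal Toll-like receptors, read 10.72 in 17-71 and 5.09 in GL-1 (5.62). LAMP3, a lysosomal membrane protein of mature dendritic cells, read 11.15 in 17-71 and 5.63 in GL-1 (5.52). In both genes the T-labelled lines were at background, with 4.65 to 5.13 for TASL and 5.45 to 6.35 for LAMP3.

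Genes of growth, survival and metabolism added single large differences in 17-71. CCND1 (cyclin D1), which drives entry into the cell cycle, read 12.34 in 17-71 and 7.67 in GL-1 (4.67; 4.34 on the other probe set), and MCL1, a survival factor, read 13.24 in 17-71 and 11.03 in GL-1 (2.21; 2.17 on the other). SLC2A3, a glucose transporter, read 13.75 in 17-71 and 10.00 in GL-1 (3.75), with all 4 probe sets between 3.72 and 3.99. CDA, cytidine deaminase, which inactivates cytidine analogues, read 11.79 in 17-71 and 7.21 in GL-1 (4.58; 4.63 on the other).

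Mitosis and DNA replication genes were called about as often as all genes. Of 52, 2 were higher in 17-71 and 0 in GL-1 (3.85% called, against 4.08%), with a median of -0.19. PCNA, the replication clamp, read 13.49 in 17-71 and 13.73 in GL-1. Of 31 respiratory chain genes 0 differed by 2 or more, and the list median was -0.05.

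Progenitor genes formed the first group on the GL-1 side. FLT3 read 8.672 in 17-71 and 13.0002 in GL-1, against 7.44 in CL-1, 7.49 in CLGL-90 and 7.98 in CLL-1390. The difference was -4.33, and -4.86 on its other probe set. GL-1 stood 4 or more above every other line, and 17-71 was above the T-labelled lines by less than 2.

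MYB, a transcription factor of progenitors, read 7.31 in 17-71 and 11.89 in GL-1 (-4.58), and LMO2, a bridging protein of early haematopoietic complexes, 8.37 in 17-71 and 11.60 in GL-1 (-3.23; -1.75 on the other probe set). Neither gene was particular to GL-1. MYB read 12.01 in CL-1, 8.05 in CLGL-90 and 11.23 in CLL-1390. LMO2 read 6.76 in CL-1, 7.71 in CLGL-90 and 12.87 in CLL-1390. DNTT, the polymerase that adds bases at V(D)J joints, read 5.62 in 17-71 and 8.59 in GL-1 (-2.97). RAG2, a subunit of the V(D)J recombinase, read 6.04 in 17-71 and 8.31 in GL-1 (-2.27). DNTT and RAG2 were at background in every line but GL-1, with 6.14 as the highest of the others; RAG1 was at background in all 5 (5.88 in 17-71, 5.58 in GL-1).

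The progenitor list had 2 of 21 genes higher in 17-71 and 7 higher in GL-1 (42.9% called, against 4.08% of all genes). Its median was 0.00 and 10 of its members were above 0, with differences from -4.58 to 4.45. The lean to GL-1 thus lay in the called genes and not in the list as a whole. KIT, the stem cell factor receptor, was on the 17-71 side at 10.46 in 17-71 and 7.76 in GL-1 (2.70; 2.87 on the other probe set). CD34 read 7.23 in 17-71 and 7.01 in GL-1, beside 10.27 in CLL-1390.

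FCGR1A read 7.72 in 17-71 and 11.10 in GL-1 (-3.37, 1 probe set), where the T-labelled lines had 6.09 to 6.46. MS4A2, the beta chain of the IgE receptor known from mast cells and basophils, read 5.96 in 17-71 and 11.31 in GL-1 (-5.35; -3.11 on the other), and 12.68 in CLL-1390. These were the 2 of 14 Fc receptor and adaptor genes called (14.3%, against 4.08% of all genes), both higher in GL-1. TYROBP, an adaptor of activating myeloid receptors, was high in both, at 12.29 in 17-71 and 11.25 in GL-1.

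The myeloid list did not lean to either line, with 3 of 29 genes higher in 17-71 and 2 in GL-1. That is 17.2% called, against 4.08% of all genes, with a median of 0.05. CD68, a lysosomal glycoprotein of macrophages, read 11.76 in 17-71 and 7.22 in GL-1 (4.54; 2.54 on the other probe set). TREM1, a receptor of neutrophils and monocytes, read 6.26 in 17-71 and 8.66 in GL-1 (-2.40). CYBB, the catalytic subunit of the phagocyte oxidase, missed the size at 11.09 in 17-71 and 9.19 in GL-1 (1.90), and CSF1R was at background in both. CD14 read 7.95 in 17-71 and 8.26 in GL-1, beside 7.97 to 8.22 in the T-labelled lines. The markers LYZ, S100A8 and S100A9 were within 1 of each other in the pair and are given with the shared genes.

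Genes named for the T lineage were the second group on the GL-1 side: of 27 counted, 1 was higher in 17-71 (CD2) and 7 in GL-1. That is 29.6% called, against 4.08% of all genes, with a median of -0.16, and 0.21 with spike-in centring. SKAP1, an adaptor of T-cell adhesion, read 5.74 in 17-71 and 11.30 in GL-1 (-5.56), and its other 3 probe sets gave -4.05 to -0.47. LCK, the kinase that starts T-cell receptor signalling, read 5.58 in 17-71 and 10.65 in GL-1 (-5.07; -3.65 on the other), beside 8.88 to 11.78 in the T-labelled lines. RHOH, a GTPase of blood cells, read 7.20 in 17-71 and 11.49 in GL-1 (-4.29).

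CD3D gave -4.64 on its chosen probe set and -6.65 on the other, on which 17-71 read 3.63 and GL-1 10.28. CD3G gave -4.27. LEF1, a Wnt-responsive transcription factor of early lymphocytes, read 4.94 in 17-71 and 9.00 in GL-1 (-4.07; -3.07 on the other). CD7, an early T-cell antigen, was the seventh member (outside the naming rule), at 5.96 in 17-71 and 8.92 in GL-1 (-2.96). In all 7 genes GL-1 lay within the range of the T-labelled lines, while 17-71 lay at or below the top of background in every one but RHOH.

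CD2 read 11.42 in 17-71, 5.71 in GL-1, 6.15 in CL-1, 12.59 in CLGL-90 and 6.30 in CLL-1390. The difference between 17-71 and GL-1 was 5.71, and 3.84 on the other probe set. On the chosen probe set CLGL-90 and 17-71 alone were above background.

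The B-lineage list itself had 3 of 25 genes higher in 17-71 and 2 in GL-1 (20% called, against 4.08% of all genes). Its median was 0.06, and -0.14 on the most variable probe set. On the 17-71 side, beside CD40 and BANK1, was BLNK, an adaptor of the B-cell receptor, at 8.12 in 17-71 and 5.35 in GL-1 (2.77), which its other probe set did not repeat (-0.05). On the GL-1 side were CD79A and PIK3AP1, a PI3-kinase adaptor of B cells, at 5.79 in 17-71 and 9.29 in GL-1 (-3.50). BTK, a tyrosine kinase of B-cell receptor signalling, was near equal at 11.52 in 17-71 and 11.46 in GL-1, and CLL-1390 had 11.23.

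Receptors for nucleotides and related metabolites were called often in both directions: of 19 genes 2 were higher in 17-71 and 6 in GL-1. That is 42.1% called, against 4.08% of all genes, with a median of -0.80. P2RY13, an ADP receptor, read 5.42 in 17-71 and 10.59 in GL-1 (-5.17), and P2RY12, the ADP receptor of platelets, read 5.18 in 17-71 and 8.51 in GL-1 (-3.33; -5.46 on the other probe set). SUCNR1, the succinate receptor, read 6.47 in 17-71 and 11.34 in GL-1 (-4.87), and ADORA3, an adenosine receptor, 6.72 in 17-71 and 10.07 in GL-1 (-3.35). For these 4 genes the T-labelled lines read at most 7.04, so GL-1 stood above every other line.

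P2RX5, an ATP-gated channel, read 6.27 in 17-71 and 8.95 in GL-1 (-2.69; -3.89 on the other probe set), with 7.85 to 9.98 in the T-labelled lines, so 17-71 was the low line. P2RY14 (outside the naming rule), a receptor for UDP-sugars, read 8.58 in 17-71 and 10.70 in GL-1 (-2.12), both above the 5.69 to 6.41 of the T-labelled lines. ENTPD1 (CD39), the ectoenzyme that breaks down extracellular ATP, read 9.33 in 17-71 and 6.39 in GL-1 (2.93). ADORA2A (also outside the rule), the adenosine receptor that damps lymphocyte activation, read 11.13 in 17-71 and 8.83 in GL-1 (2.30).

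Some annexins, calcium-dependent phospholipid-binding proteins, were higher in GL-1. ANXA3 read 5.76 in 17-71 and 12.18 in GL-1 (-6.42; -5.31 on the other probe set), ANXA5 read 7.27 in 17-71 and 13.36 in GL-1 (-6.09), and ANXA2 read 7.21 in 17-71 and 12.72 in GL-1 (-5.51; -6.72 and -1.74 on the others). S100A6, a small calcium-binding protein, read 9.73 in 17-71 and 14.22 in GL-1 (-4.49; -5.15 and -4.70 on the others), and at most 6.67 in the T-labelled lines. With ANXA4 these made 5 of 22 genes of the S100 and annexin list higher in GL-1 and 0 in 17-71. That is 22.7% called, against 4.08% of all genes, while the list median was -0.18 and 10 of the 22 members were above 0.

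The largest difference on the GL-1 side was CA2, a carbonic anhydrase. It read 5.54 in 17-71 and 13.32 in GL-1, against 4.53 in CL-1, 4.06 in CLGL-90 and 12.87 in CLL-1390. The difference was -7.78, and its other probe sets gave -7.36 and -6.66. GL-1 and CLL-1390 shared this signal, as they shared those of MS4A2 and GCSAML (4.40 in 17-71 and 10.20 in GL-1, with 10.06 in CLL-1390).

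Other genes stood far above every other line in GL-1. AMBN (ameloblastin, a tooth enamel matrix protein) read 6.70 in 17-71 and 12.56 in GL-1 (-5.86; -6.52 on the other probe set). N4BP2L1 read 6.04 in 17-71 and 11.18 in GL-1 (-5.14; -6.31 on the other), with 5.46 to 6.76 in the T-labelled lines. RGS18, a regulator of G-protein signalling known from platelets, read 4.49 in 17-71 and 10.85 in GL-1 (-6.36), and IL22RA2, the soluble decoy receptor for interleukin-22, 5.46 in 17-71 and 11.64 in GL-1 (-6.17).

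PAG1, a membrane adaptor that recruits the kinase CSK, read 6.02 in 17-71 and 11.50 in GL-1 (-5.48; -7.17 on the other probe set). CCR9, a gut-homing chemokine receptor, read 6.79 in 17-71 and 11.50 in GL-1 (-4.71), and 11.16 in CLL-1390. MX1, an interferon-induced GTPase, read 7.51 in 17-71 and 11.34 in GL-1 (-3.83), and the interferon list had 2 of 37 genes on each side (10.8% called, against 4.08%; median 0.02), TASL and IFI44L in 17-71 and MX1 and IFIH1 in GL-1.

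A separate group consisted of genes that were low in a single line of the 5. GL-1 stood 2 or more below every T-labelled line in 21 of the 286 genes higher in 17-71 (7.34%). SHCBP1, a spindle midzone protein of dividing cells, read 10.91 in 17-71 and 3.66 in GL-1 (7.26; 5.24 on the other probe set), and 10.69 to 11.50 in the T-labelled lines. ASAH1, acid ceramidase, read 9.90 in 17-71 and 4.02 in GL-1 (5.88; 5.54 on the other). DGUOK, mitochondrial deoxyguanosine kinase, which salvages purine deoxynucleosides, read 9.83 in 17-71 and 4.22 in GL-1 (5.61; 4.23 on the other).

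PBDC1 (1 probe set) read 11.07 in 17-71 and 5.37 in GL-1 (5.70), and 10.42 to 10.81 in the T-labelled lines. CTH, an enzyme of cysteine synthesis, read 9.74 in 17-71 and 3.27 in GL-1 (6.47), but its other probe sets gave 0.28 and 2.78, so its probe sets differed in size. For SHCBP1, ASAH1 and DGUOK both probe sets agreed, and GL-1 was at background for each chosen probe set. Whether the sequence under these probes differs in GL-1 was not tested.

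The converse group was larger: 17-71 stood 2 or more below every T-labelled line in 35 of the 291 genes higher in GL-1 (12%). YBX3, a cold-shock RNA-binding protein, read 4.63 in 17-71 and 11.51 in GL-1 (-6.88; -2.21 on the other probe set), and 11.44 to 13.14 in the T-labelled lines. PGM2, a sugar phosphomutase, read 3.93 in 17-71 and 10.31 in GL-1 (-6.38; -5.57 and -3.68 on the others). GSTO1, a glutathione transferase, read 4.65 in 17-71 and 11.50 in GL-1 (-6.85, 1 probe set).

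MAGED2, a member of the MAGE family, read 5.49 in 17-71 and 10.72 in GL-1 (-5.23), and its other 3 probe sets gave -4.40 to -2.29. KLRG1, given above, read 11.55 to 12.97 in the T-labelled lines. ANXA5 belonged here too, with 10.23 to 13.02 in the T-labelled lines. In each of these genes 17-71 was the odd line out, and GL-1 resembled the rest.

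**Figure D4:**
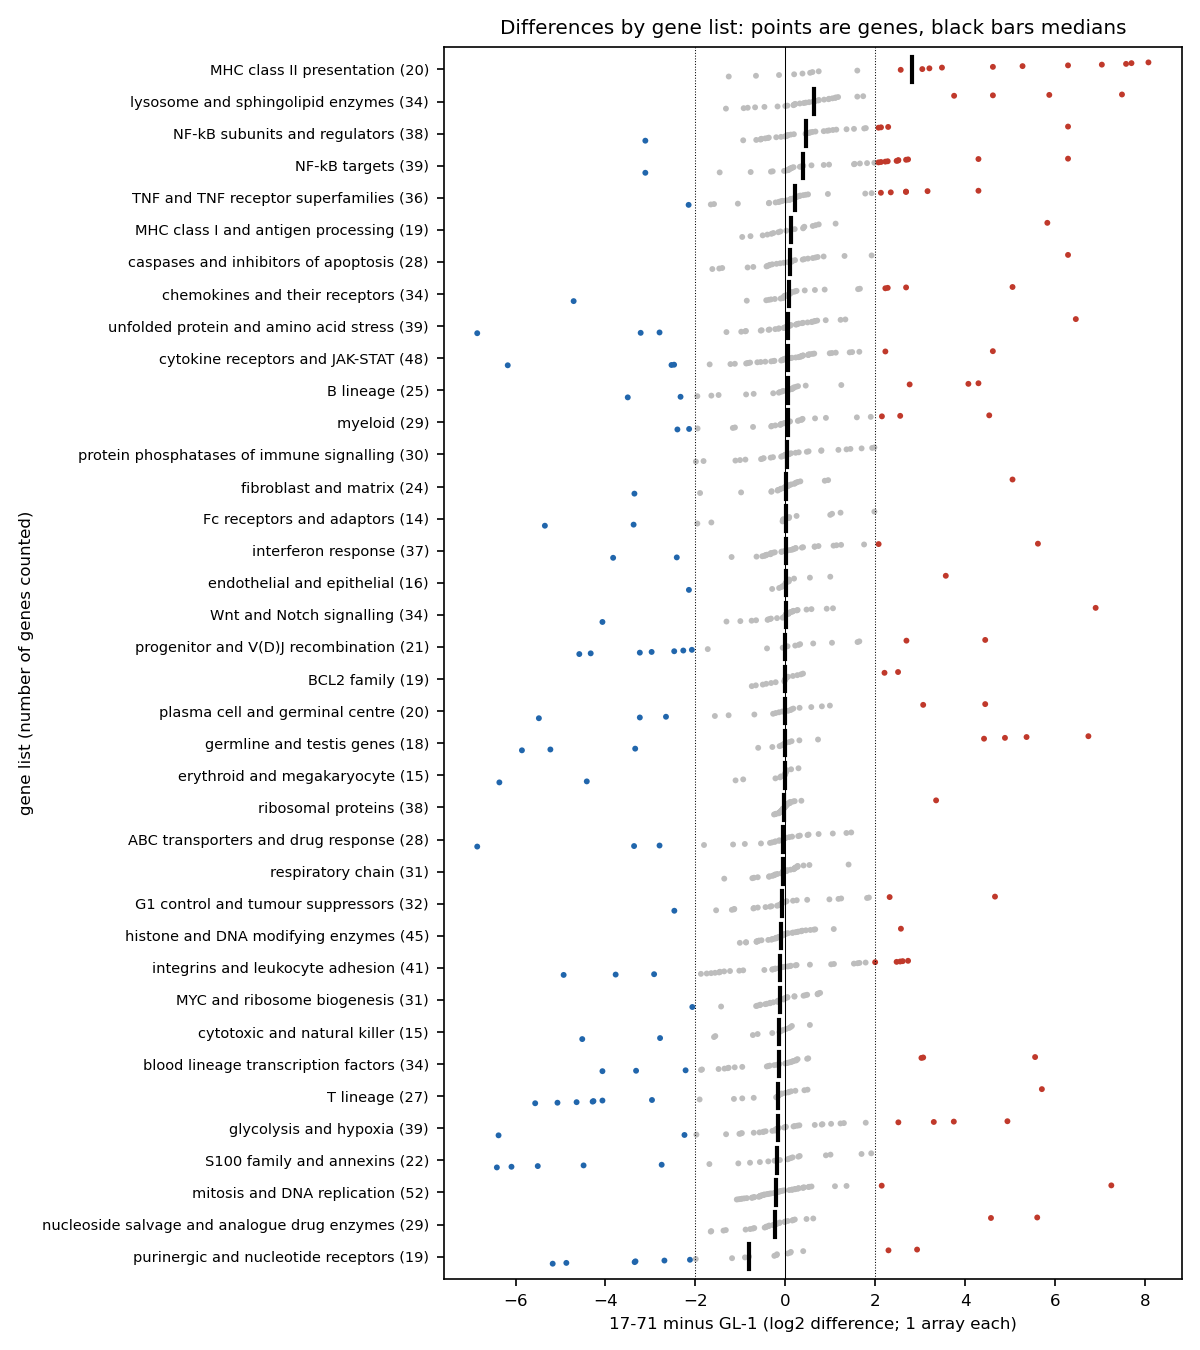
Log2 differences (17-71 minus GL-1, x axis) of the counted genes of each of the 38 lists (y axis, number of genes in brackets), sorted by median; red points are at 2 or more, blue at -2 or less, grey between, and black bars are list medians. The MHC class II list is the only one with a median beyond 1 (2.81), purinergic receptors have the lowest median (-0.80), and the progenitor list is spread on both sides around 0.00.

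Housekeeping lists gave counts near the background of 4.08%. Of 38 ribosomal protein genes 1 was called (2.63%; median -0.02), of 45 histone and DNA modifying enzymes 1 (2.22%; median -0.08), of 31 MYC and ribosome biogenesis genes 1 (3.23%; median -0.12) and of 28 caspases and inhibitors of apoptosis 1, BIRC3 (3.57%; median 0.10). The ribosomal exception was RPS4X, at 12.40 in 17-71 and 9.04 in GL-1 (3.36, 1 probe set), where the T-labelled lines read 7.29 to 9.29. FBL, a nucleolar methyltransferase, was the ribosome biogenesis gene called, at 11.15 in 17-71 and 13.22 in GL-1 (-2.07).

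Probe sets of a gene did not always agree, and where they did not the call depends on which is read. An opposite sign appeared in 23 of the 331 called genes with several probe sets, and another probe set under 1 in the called direction in 91. AIG1 was the clearest: its chosen probe set read 10.27 in 17-71 and 8.10 in GL-1 (2.17), while another read 8.44 in 17-71 and 10.52 in GL-1 (-2.08), and the remaining probe sets gave -1.87 and -1.58. CCDC179 read 9.65 in 17-71 and 4.28 in GL-1 (5.37) on 1 probe set, and the others gave 0.04 and 0.10.

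The reverse also occurred: 85 genes had a chosen probe set within 2 and another at 2 or more, and 99 another at -2 or less. CD163, a scavenger receptor of macrophages, had a chosen probe set near background (6.62 in 17-71, 6.26 in GL-1), but its other 3 were higher in 17-71, at 10.40 in 17-71 and 3.66 in GL-1 (6.75), 9.10 in 17-71 and 4.99 in GL-1 (4.11), and 8.30 in 17-71 and 4.48 in GL-1 (3.81). The T-labelled lines were at background on all of these. PLPP7, a lipid phosphatase family member, gave -6.97 on a probe set that read 3.26 in 17-71 and 10.22 in GL-1, and 0.40 on another. The gene counts above therefore miss differences of this kind.

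What the lines share was broad at high levels. Both read log2 10 or more in 2571 genes, of which 1841 were within 0.5 of each other, and 12386 genes were within 1 at any level. XBP1, a transcription factor of secretory cells, read 12.26 in 17-71 and 12.40 in GL-1, and VIM, vimentin, 14.02 in 17-71 and 14.14 in GL-1. LCP2, an adaptor downstream of antigen receptors, read 10.08 in 17-71 and 10.23 in GL-1, but 3.99 in CL-1.

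Among the 12386 genes within 1 of each other, 746 were above every T-labelled line in both. Of these, 38 were above by 1 or more and 13 by 2 or more. How many genes another pair of lines would place this way was not tested. LYZ, lysozyme, read 12.39 in 17-71 and 12.01 in GL-1, where the T-labelled lines had 3.28 to 4.02. S100A9 read 11.22 in 17-71 and 10.32 in GL-1, and at most 4.55 in the T-labelled lines. S100A8 read 8.64 in 17-71 and 8.59 in GL-1, and at most 4.98 in the T-labelled lines. NCF4, a subunit of the phagocyte oxidase, read 11.03 in 17-71 and 10.37 in GL-1, and AIF1, a calcium-binding protein of macrophages, 11.46 in 17-71 and 11.76 in GL-1. RNLS, renalase, a flavoprotein, read 10.47 in 17-71 and 10.23 in GL-1, with 5.92 to 6.47 in the T-labelled lines. SPI1 (PU.1), the transcription factor of myeloid and B cells, read 9.45 in 17-71 and 8.94 in GL-1.

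Below every T-labelled line in both were 1223 of the 12386 genes, 12 of them by 1 or more and 3 by 2 or more. Those 3 were SCML2, a Polycomb-group protein, at 5.67 in 17-71 and 5.78 in GL-1 (8.87 to 9.82 in the T-labelled lines); ARL6, a GTPase of cilia, at 6.35 in 17-71 and 6.70 in GL-1 (9.23 to 11.80); and PDCD4, a translation inhibitor, at 9.11 in 17-71 and 9.75 in GL-1 (11.81 to 12.48). S100A10, the partner of annexin A2, was low in both as well, at 7.004 in 17-71 and 7.242 in GL-1, and 9.17 to 11.18 in the T-labelled lines. ANXA2 itself parted the lines, as given above.

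Gene order showed a further structure, examined after seeing the data and so described without a test. Of 6476 genes averaging log2 8 or more over the 5 arrays, 6123 had a place on 39 chromosomes in the order given by assembly UU_Cfam_GSD_1.0. Chromosome medians of the difference lay within 0.25 of 0 on 32 of 39. Chromosome 35 stood highest: its 44 genes had a median of 1.13, 38 of them (86.4%) above 0 and 6 at 2 or more; over all counted genes, dim ones included, its median was 0.33. Chromosome 19 had the lowest median, -0.60 over 47 genes, with 7 above 0, followed by chromosome 29 with -0.49 over 62 genes; over all counted genes these were -0.22 for chromosome 19 and -0.20 for chromosome 29.

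For chromosome 35 the shift came from both lines. The median over its genes of a line's value minus the median of the other 4 lines was 0.74 in 17-71 and -0.82 in GL-1. DTNBP1, which encodes dysbindin, read 10.79 in 17-71 and 8.31 in GL-1 (2.48), with 9.44 to 10.10 in the T-labelled lines. TPMT, which inactivates thiopurine drugs, read 10.98 in 17-71 and 9.38 in GL-1 (1.601), and GMNN, an inhibitor of DNA re-replication, 12.05 in 17-71 and 9.90 in GL-1 (2.15).

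Sliding windows of 31 neighbouring genes placed the rest. Of 4953 windows 50 (1.01%) had a median of 1 or more, on chromosomes 35, 27 and 17; 0 had -1 or less, and 94.2% were within 0.5. The highest window on any other chromosome had 0.72. Neighbouring windows share genes, so their number is not a count of independent regions.

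On chromosome 27 the 31 genes from CRACR2A to SLC2A3 had a median of 1.43 with 30 above 0, where the rest of the chromosome had 0.06. Over these genes 17-71 stood 1.22 above the median of the T-labelled lines and GL-1 at -0.11. CCND2 (cyclin D2) read 14.19 in 17-71 and 12.37 in GL-1 (1.82), LTBR, the lymphotoxin beta receptor that feeds NF-kB, 10.08 in 17-71 and 8.30 in GL-1 (1.78), and PTPN6, a phosphatase that damps immune receptors, 12.24 in 17-71 and 10.25 in GL-1 (1.98). Within this stretch even genes short of the counted size lay together on the 17-71 side.

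On chromosome 17 the 31 genes from SEC22B to TUFT1 had a median of 1.18 with 31 above 0, where the rest of the chromosome had -0.02; 17-71 stood 0.94 above the T-labelled median and GL-1 at -0.20. This stretch holds CTSS, RFX5 and MCL1, named above for antigen presentation and survival. SETDB1, a histone H3 lysine methyltransferase, read 11.70 in 17-71 and 9.29 in GL-1 (2.40), and TXNIP, a regulator of thioredoxin and glucose uptake, 12.14 in 17-71 and 9.60 in GL-1 (2.54).

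On chromosome 19 the 31 genes from NUDT6 to ORC4 had a median of -0.78 with 0 above 0; 17-71 stood at -0.56 against the T-labelled median and GL-1 at 0.48. ANXA5 lies here, as does GYPC, the red cell glycophorin C, at 6.32 in 17-71 and 10.74 in GL-1 (-4.42). On chromosome 5 the stretch from RPAIN to FXR2 had the same median of -0.78, with 1 of 31 above 0 and 17-71 at -0.75 against the T-labelled median. On chromosome 25 the stretch from SUPT20H to XPO4 had -0.76, with 4 of 31 above 0. There GL-1 stood 0.73 above the T-labelled median and 17-71 0.09 above it. DNA copy number was not analysed here, and its part in these stretches was not tested.

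**Figure D5:**
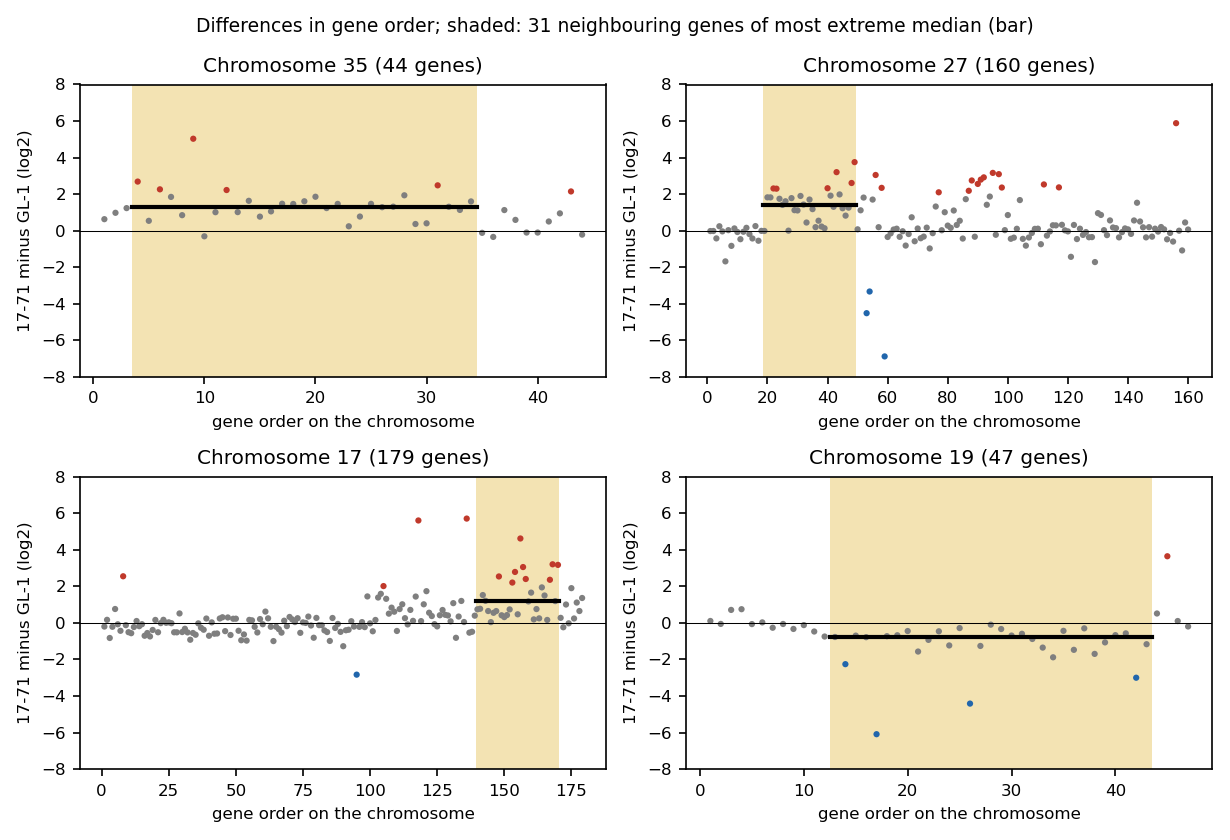
Log2 difference (17-71 minus GL-1, y axis) of each gene in its order along chromosomes 35, 27, 17 and 19 (x axis), with the 31 neighbouring genes of most extreme median shaded and that median drawn as a bar; red points are at 2 or more and blue at -2 or less. The bars stand at 1.31 on chromosome 35, 1.43 on 27, 1.18 on 17 and -0.78 on 19, and outside the shading on 27 and 17 most genes lie around 0.

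The other pairs of lines also had chromosomes that stood apart. The chromosome of largest absolute median in the other 9 pairs ranged in size from 0.52 between 17-71 and CLGL-90 to 1.07 between CL-1 and CLL-1390. Chromosome 35 had medians of 1.04 for 17-71 against CLL-1390 and 1.04 for CL-1 against GL-1. Its median was 0.28 for 17-71 against CL-1 and -0.11 for GL-1 against CLL-1390. A chromosome-wide shift was thus seen in other pairs as well, and these comparisons share arrays with the one between 17-71 and GL-1.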

How the data were processed

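The deposited table gives a log2 intensity for each probe set in each line; the authors corrected background, normalized and summarized the arrays with GCRMA, per the submitters' processing notes (version not given in the sources used here). Columns outside the series numbered 0. Of 43035 probe sets, 111 were Affymetrix controls and were dropped; of the remaining 42924, 29254 had 1 gene symbol, 439 several and 13231 none in the annotation, and 27680 of the named (94.6%) matched the reference gene table of UU_Cfam_GSD_1.0. No sequence was used.

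Differences were computed in Python 3.11.15 with numpy 2.4.6, pandas 2.3.3, scipy 1.17.1 and statsmodels 0.14.6; figures used matplotlib 3.10.9. The script was tested on simulated data. The number of arrays limits precision: with 1 array per line there is no test. A gene or probe set needed log2 5 in 17-71 or GL-1, and a gene was read on its probe set of highest mean.

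Named genes are the 4 markers BIRC3, CD40, FLT3 and FCGR1A, fixed cell type markers, the 12 largest differences per direction with all probe sets at 2 or more, the 6 largest with 1 probe set, up to 6 called members per list, 6 genes with disagreeing probe sets, 8 shared genes per side and each list's brightest member; both last groups required no call. Others are named as outside the rule; genes named within a chromosome stretch and RFX5, CIITA and RFXAP were chosen after their values were seen. Lists number 38. The members, lists and rules were chosen with earlier results of these data known. Alternatives were other filters, normalizations, floors, sizes and probe set choices. The chromosome analysis and spike-in centring were added after seeing the data.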

Additional observations from a re-analysis of the deposited data

How the results depend on the processing

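No paired analysis was possible because each line is 1 array, and for the same reason no replicate could be left out; signal over the non-dog controls limits how far a difference from background can be sized. Relative to the deposited scale, centring on the spike-in probe sets moves every gene by 0.37 toward 17-71. It gave 410 genes higher in 17-71 and 223 in GL-1, and 1058 probe sets higher in 17-71 and 553 in GL-1. List medians became 3.18 for MHC class II, 0.83 for NF-kB subunits, 0.86 for NF-kB targets, 1.003 for lysosomal enzymes, 0.43 for B lineage, 0.21 for T lineage, 0.37 for progenitor genes and -0.44 for purinergic receptors; chromosome medians became 1.5003 (35), -0.23 (19) and -0.12 (29). At a size of log2 1 the counts were 829 genes higher in 17-71 and 928 in GL-1 (probe sets 2211 and 2445), and at log2 3 they were 132 and 131 (345 and 347). On the most variable probe set the medians were 3.19 for MHC class II, 0.29 for NF-kB subunits, 0.58 for NF-kB targets, -0.14 for B lineage and 1.32 for chromosome 35, and 1632 genes reached log2 10 in both lines, 1095 of them within 0.5. On the median of a gene's probe sets NF-kB targets had 0.70 and lysosomal enzymes 0.47; with a floor at the highest non-dog control NF-kB subunits had 0.30. Over all counted genes chromosome medians were 0.33 (35), -0.22 (19) and -0.20 (29). Sign agreement was 89.4% with no filter and 96.6% at log2 7. The correlation was 0.936 with no filter, 0.811 at log2 7 and 0.924 with the floor at the control. AIG1 turned to -0.62 on the median of its probe sets and to -2.08 on the most variable one, and IL6ST to -0.0613 with the floor at the control, which removes its signal. Of 138 named genes at 2 or more, 137 or 138 kept their sign under each of 8 settings and 117 to 138 stayed at 2 or more. Other than as given, the cause was not tested.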
